A study of Mus musculus with 8 samples.

Results

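Heat shock and DnaJ chaperone genes were examined in the whole pituitary of young and old mice. They were taken by symbol: every row whose name begins with Dnaja, Dnajb or Dnajc and a number, with Hspa, Hspb, Hspd, Hspe or Hsph and a number, with Hsp90a, or with Hsf and a number, Hspa5 left out. This gave 89 of the 49585 rows. Of these, 12 are pseudogene copies such as Hspd1-ps3, and the other 77 rows hold 76 symbols, since Hspa14 stands on 2 rows. The rule reads names and no values. It also reaches beyond the cytosol: 12 of the 77 rows encode proteins of the endoplasmic reticulum (Dnajb9, Dnajb11, Dnajc3, Hspa13 and others) and 10 encode proteins of mitochondria (Hspa9, Hspd1, Hspe1 and others), so the set is called heat shock and DnaJ chaperone genes here and not cytosolic chaperones.

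Both groups were wild-type C57BL/6 mice kept under specific-pathogen-free conditions on regular chow. Young mice were 2 to 3 months old and old mice 18 to 24 months old, with 4 polyA RNA libraries of isolated whole pituitary at each age, and the labels name no treatment. Separate mice for each library are stated neither in the labels nor in the study's methods, and the p-values below reflect only how these samples vary, which may be technical. Levels are FPKM, fragments per kilobase of exon and per library size, and the comparison asks how they differ between the ages.

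Chaperones bind unfolded or partly folded proteins, and most use ATP to release them so that they can fold. Hsp70 proteins do this in a cycle that DnaJ proteins (Hsp40) start by handing over a client and stimulating ATP hydrolysis, and that exchange factors, Hsp110 proteins among them, end by removing ADP. Hsp90 acts later, on kinases and steroid receptors, small heat shock proteins hold unfolded chains without ATP, and Hspd1 and Hspe1 form the folding chamber of mitochondria. Heat shock factors are the transcription factors that switch on the inducible members, by binding inverted repeats of the unit GAA, called heat shock elements, near the genes' start sites. In hormone-secreting cells of the pituitary, the folding of hormones themselves takes place in the endoplasmic reticulum.

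Promoter stretches are shown for 6 members known to be induced by heat. They belong to a group that was drawn up after expression values were seen and is described further on. RefSeq start sites on GRCm38.p6 were given for 60 of the 76 symbols. A heat shock element core is GAA and TTC, or TTC and GAA, with any 2 bases between them. Such a core reads the same on both strands. It was sought in the 250 bases before every listed start, and any window with a core was enough for a gene. Genes with several starts thus had more windows. A core stood in 15 of the 60, or 25%, against 14.5% of all 27025 genes. Among 8 inducible genes with an entry it stood in 7, all but Dnajb1, and among the other 52 in 8, or 15.4%. The inducible genes were picked as genes known to respond to heat, after values were seen, so these shares are a description without a test. In the stretches below, each written 5′ to 3′ along its gene, the cores are in capitals. The Dnaja1 and Hspd1 stretches, and part of the Hsph1 one, lie inside the genes as placed by the GENCODE M21 annotation.

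Hspd1, chr1:55088034-55088101, minus strand, the promoter shared head to head with Hspe1: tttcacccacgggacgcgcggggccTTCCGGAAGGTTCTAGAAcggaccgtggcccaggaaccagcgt
Hspa1a, chr17:34972228-34972285, minus strand: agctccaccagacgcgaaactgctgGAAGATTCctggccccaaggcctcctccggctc
Hspa1b, chr17:34959310-34959367, minus strand: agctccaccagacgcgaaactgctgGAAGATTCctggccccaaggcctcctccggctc
Hsph1, chr5:149636337-149636394, minus strand: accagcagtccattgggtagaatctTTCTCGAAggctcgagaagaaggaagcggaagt
Dnaja1, chr4:40722319-40722376, plus strand: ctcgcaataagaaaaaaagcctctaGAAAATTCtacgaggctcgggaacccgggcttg
Hspb1, chr5:135887777-135887854, plus strand: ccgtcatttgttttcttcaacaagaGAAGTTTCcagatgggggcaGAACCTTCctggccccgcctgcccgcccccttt

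The chaperonin promoter holds 3 overlapping cores that begin between positions -144 and -134 from the Hspd1 start, an uninterrupted alternation of GAA and TTC units. A run of at least 3 units stood in 0.514% of all genes and, of the chaperone genes with an entry, in Hspd1, Hspe1 and Dnajb6. Hspa1a and Hspa1b carry the same printed stretch, and 247 of the 250 bases before their starts are identical. A match is a description of letters and not a binding site. No core stood in the windows of Hspa2 and Hspb8, which are taken up below. Hsf4, Hspa8 and Hsp90aa1 had no entry and were not searched.

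The libraries held 15042321 to 20429604 fragments, recovered from the steps between low values, of which 91.3 to 92.1% were whole within 0.01. Of the 89 chaperone rows, 74 reached 0.1 FPKM on average and were tested, 69 of them outside pseudogenes, and 3 rows were at 0 in all libraries. The comparison used limma on log2(FPKM + 0.1) with Benjamini-Hochberg adjustment over all 23498 genes tested. Fold changes on this scale understate the change of genes at low FPKM. The scaling of FPKM matters here, because hormone genes held 13.0 to 18.6% of each library's fragments and ribosomal RNA repeat genes 33.8 to 40.3%. Over all genes, the median log2 fold change was 0.15 with FPKM as deposited and 0.01 after median-of-ratios scaling, and the split of calls moved from 436 higher and 111 lower to 212 higher and 201 lower.

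Few chaperone genes differed between young and old pituitary. The heat shock factor gene Hsf4 and the Hsp70 gene Hspa2 rose, and none fell. That is 2 of 74, or 2.70%, against 1.86% of all genes higher in old and 0.472% lower. At an unadjusted p under 0.05, 13 were higher and 1, Dnajb5, was lower, or 18.9% of the set, against 4222 higher and 890 lower genes in all, or 21.8%. Every old library lay above every young one for 11 chaperone genes, or 14.9%, against 13.4% of all genes, and no chaperone gene had every old library below every young one, against 2.06%. These shares are near those of all genes. The median log2 fold change was 0.10 over the chaperone rows against 0.15 over all genes, and -0.04 against 0.01 after median-of-ratios scaling, so that 42 of the 74 lay below the median of all genes and 32 above it.

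**Figure D1:**
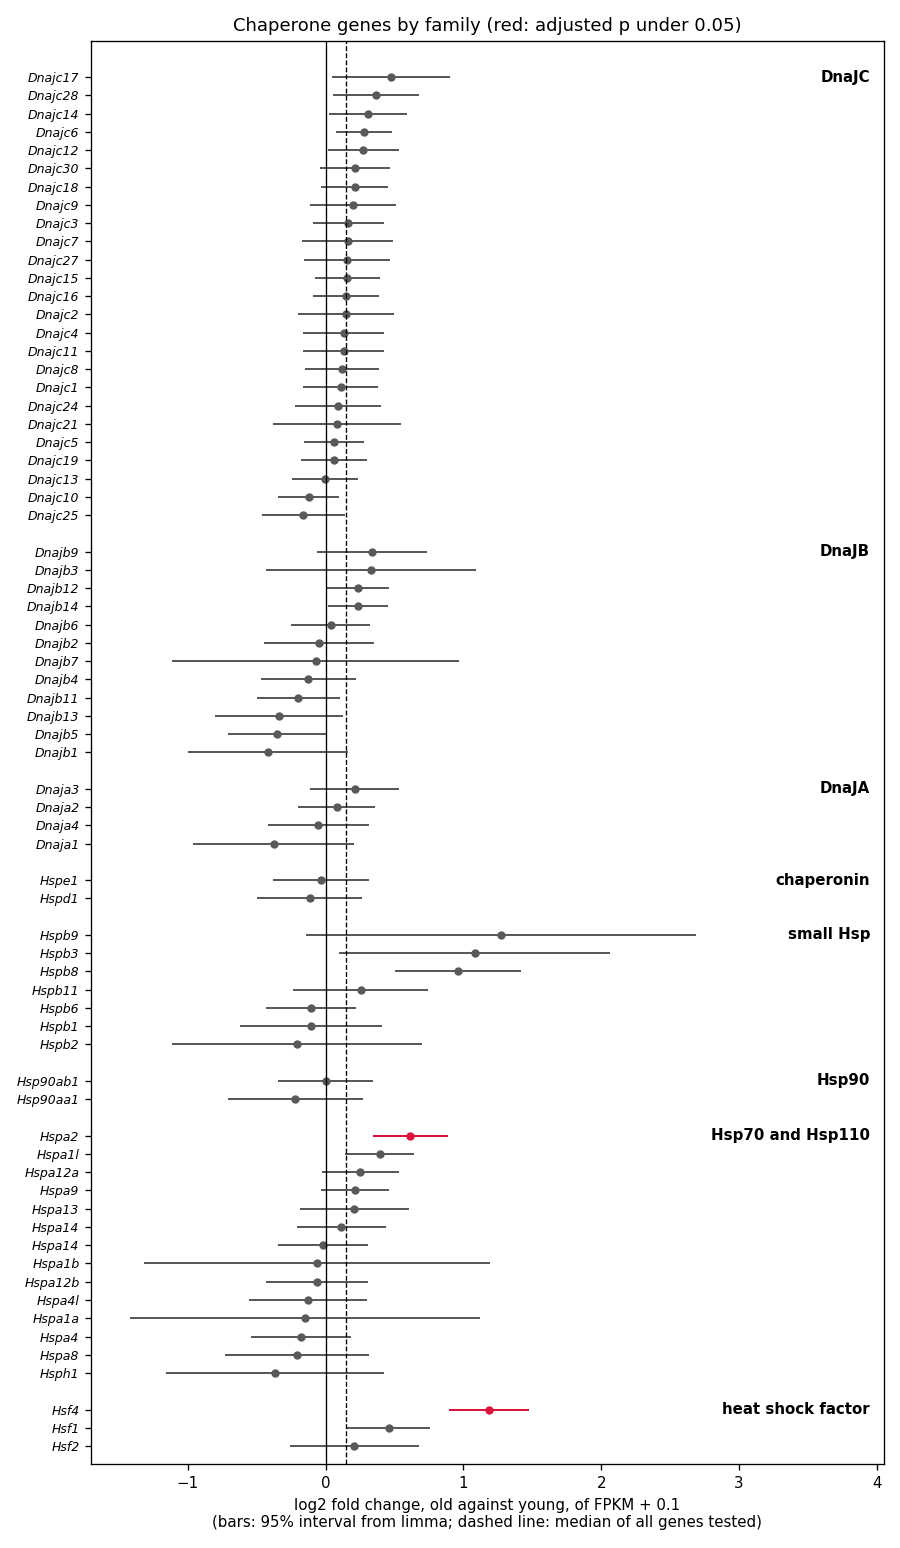
Log2 fold change (old against young, x axis, of FPKM + 0.1) of the 69 tested rows outside pseudogenes, grouped by family, with the 95% interval from limma; the dashed line is the median of all genes tested, and Hspa14 appears once for each of its 2 rows. Hsf4 and Hspa2, in red, passed the test, 22 of the 25 DnaJC genes lay above 0, and the intervals of Hspa1a and Hspa1b were wide.

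The members that bind heat shock elements, the heat shock factors, included the gene with the smallest p of the set. Hsf4, whose protein is known for its part in the lens of the eye, is on chr8:105269801-105275845, plus strand. It measured 2.06, 2.31, 2.04 and 2.59 FPKM in the 4 young libraries and 5.99, 5.03, 5.39 and 4.60 FPKM in the 4 old ones. All old libraries stood well above all young ones, with 279 fragments in young and 655 in old libraries together. The log2 fold change was 1.19 (SE 0.12, limma adjusted p = 0.0107), or 1.05 with an adjusted p of 0.0146 after median-of-ratios scaling, and the call held without any single library (adjusted p 0.0179 to 0.0378).

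Hsf1, the factor that drives the response to heat in mouse cells, did not pass. Its level was 7.75, 7.21, 8.95 and 9.10 FPKM in the young samples and 10.2, 11.8, 13.0 and 10.5 FPKM in the old ones. The ages did not overlap, and the log2 fold change was 0.46 (SE 0.13, limma adjusted p = 0.0996). Hsf2, which is known for roles in development, measured 2.18 to 3.66 FPKM in the young samples and 2.65 to 4.09 FPKM in the old ones, with an adjusted p of 0.569 in limma. Hsf3 was listed at 0 in all young libraries and at most at 0.0170 FPKM in old ones. Hsf5 did not exceed 0.0706 FPKM in any library, so neither was tested. Hsf2bp, which the rule takes by its name and which encodes a protein that binds Hsf2, stayed under 0.1 FPKM as well.

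The ratio of Hsf4 to Hsf1 in a library does not depend on its scaling. It was 0.27 ± 0.04 (SD, n = 4) in young and 0.47 ± 0.08 (SD, n = 4) in old libraries. The 4 old ratios, 0.41 to 0.59, all lay above the 4 young ones, 0.23 to 0.32. This pair was picked after its values were seen and is given without a test.

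**Figure D2:**
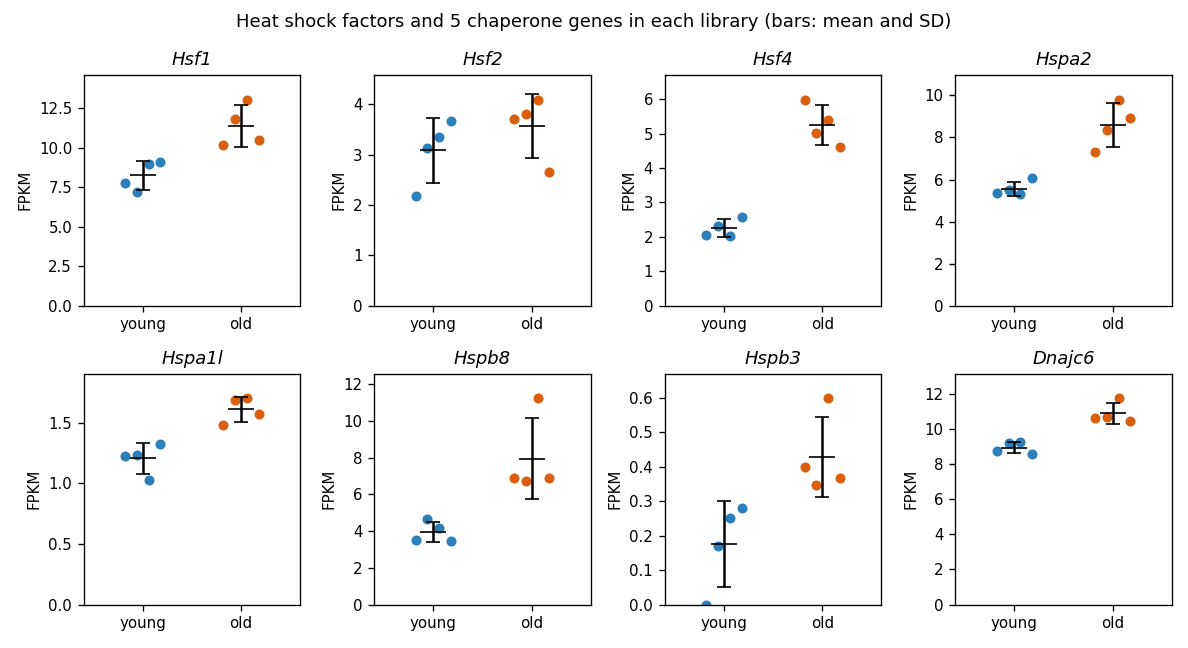
FPKM of 8 genes in each young (blue) and old (orange) library, with the mean and SD of each age as black bars. The 2 ages overlap for Hsf2 and for none of the other 7; Hspb8 has 1 old library at 11.2 FPKM, above the other 3 near 7.

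Among Hsp70 genes, Hspa2 rose, and the abundant constitutive and inducible genes did not pass the test. Hspa2, known for its high level in male germ cells and present in many tissues, is on chr12:76404176-76406938, plus strand, and measured 5.38, 5.49, 5.30 and 6.05 FPKM in the young samples and 7.32, 8.37, 9.80 and 8.92 FPKM in the old ones. The lowest old library was above the highest young one. The log2 fold change was 0.62 (SE 0.11, limma adjusted p = 0.0410). This call was close to its limit, since the adjusted p was 0.0492 after median-of-ratios scaling, 0.0517 with library sizes that leave out hormone and ribosomal RNA repeat genes, and 0.0581 to 0.116 when any 1 library was left out.

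Hspa8, the constitutive Hsc70 and the most abundant gene of the family, measured 135, 106, 184 and 175 FPKM in the young samples and 107, 106, 150 and 154 FPKM in the old ones. The ages overlapped, with a log2 fold change of -0.21 and a 95% interval of -0.72 to 0.31. Hspa2 relative to Hspa8 was 0.039 ± 0.010 (SD, n = 4) in young and 0.068 ± 0.009 (SD, n = 4) in old libraries, without overlap and again without a test. By level, Hspa8 at a mean of 140 FPKM stood far above Hspa9 at 37.0, Hspa4 at 24.8 and Hsph1 at 15.8 FPKM.

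Hspa1l, which lies beside Hspa1a on chr17:34972703-34979285, measured 1.22, 1.24, 1.03 and 1.33 FPKM in the young samples and 1.48, 1.68, 1.70 and 1.57 FPKM in the old ones. The ages did not overlap, and the adjusted p was 0.0935 in limma. An antisense gene, Gm10501, covers 71.9% of its exon length, and whether the counting used strand is not given in the sources used here, so reads of the antisense pair cannot be told apart. No other gene covers exons of Hsf4, Hspa2 or Hspb8 in the GENCODE M21 annotation. For Hspa2 the exon length of that annotation did not give whole fragments in every library. Its exons as counted by the authors are therefore not known, and no fragments are given for it. Hspa9, the mitochondrial Hsp70, was 30.7, 32.5, 36.8 and 37.1 FPKM in the young samples and 40.5, 37.8, 43.1 and 37.4 FPKM in the old ones, with an adjusted p of 0.279. The endoplasmic reticulum member Hspa13 had overlapping ages at 7.90 to 12.3 FPKM in the young samples and 10.4 to 13.7 FPKM in the old ones.

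Among the small heat shock genes, Hspb8 came closest to the threshold. Hspb8, whose protein works with Bag3 in the disposal of misfolded proteins by autophagy, is on chr5:116408491-116422864, minus strand. It was 3.52, 4.67, 4.14 and 3.48 FPKM in the young samples and 6.88, 6.74, 11.2 and 6.89 FPKM in the old ones. Every old library was above every young one, and fragments numbered 544 in young and 1116 in old libraries. The log2 fold change of 0.96 (SE 0.19) had an adjusted p of 0.0513 in limma, just outside the threshold, and passed with a pseudocount of 1 (0.0321), with a minimum of 1 FPKM (0.0267) and with a mean-variance trend (0.0281). It did not pass after median-of-ratios scaling (0.0835), with library sizes without the abundant genes (0.0773), with no filter (0.0698), with a pseudocount of 0.01 (0.0613) or without any 1 library (0.0633 to 0.123). Its partner Bag3 measured 22.7, 11.5, 20.9 and 22.5 FPKM in the young samples and 9.53, 12.0, 13.1 and 20.1 FPKM in the old ones, with overlapping ages and an adjusted p of 0.358.

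The other small heat shock genes showed no such separation except at very low levels. Hspb1, which encodes Hsp25 in mice and is the most abundant of them, measured 11.5 to 19.7 FPKM in the young samples and 12.3 to 18.3 FPKM in the old ones. Hspb6 measured 2.86 to 3.74 and 2.67 to 3.73 FPKM. Hspb3 measured 0, 0.170, 0.251 and 0.280 FPKM in the young samples and 0.398, 0.346, 0.598 and 0.366 FPKM in the old ones, which is 10 fragments against 24 in all, and its adjusted p was 0.193. Hspb2 shares 30.2% of its exon length with Cryab on the opposite strand, so its values are uncertain, and Hspb11, which the rule takes by name, encodes a protein of the cilium and not a typical chaperone.

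Both cytosolic Hsp90 genes were abundant and did not pass. Hsp90ab1, the constitutive form, had the highest level of the whole set, at 273, 226, 280 and 324 FPKM in the young samples and 246, 245, 304 and 305 FPKM in the old ones. Its log2 fold change was 0.00 with a 95% interval of -0.33 to 0.34 on the deposited scale, and -0.15 after median-of-ratios scaling. Hsp90aa1, the inducible form, was 62.5, 45.1, 72.1 and 85.0 FPKM in the young samples and 46.6, 52.5, 63.4 and 60.8 FPKM in the old ones. The ages overlapped in both genes, and also in the ratio of the inducible to the constitutive form, which was 0.20 to 0.26 in young and 0.19 to 0.21 in old libraries. Neither chaperonin gene passed, with Hspd1 at 30.3 to 44.1 FPKM in the young samples and 30.0 to 40.2 FPKM in the old ones and Hspe1 at 15.7 to 23.0 and 17.3 to 21.4 FPKM.

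**Figure D3:**
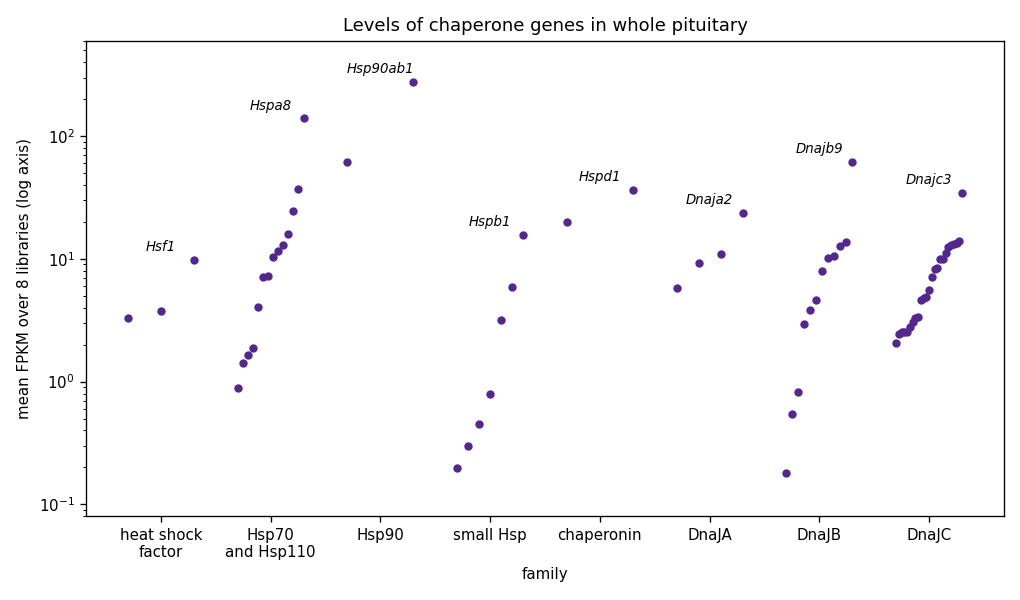
Mean FPKM over the 8 libraries (log axis) of each tested chaperone gene, by family, with the most abundant gene of each family named. Hsp90ab1 and Hspa8 stand highest, and heat shock factor genes lie between 3 and 10 FPKM.

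The DnaJ genes, 41 tested in 3 classes, gave no call in either direction. DnaJA proteins are the closest relatives of the bacterial DnaJ, DnaJB proteins lack its zinc finger, and DnaJC proteins share only the J domain. Of the 4 DnaJA genes, Dnaja2 was the most abundant, at 19.6 to 26.0 FPKM in the young samples and 22.2 to 25.6 FPKM in the old ones. Mitochondrial Dnaja3 was 7.36 to 10.0 and 9.02 to 11.6 FPKM.

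In the DnaJB class, Dnajb9 (ERdj4), a cofactor of the Hsp70 of the endoplasmic reticulum, was the most abundant, at 39.9, 56.5, 63.2 and 58.4 FPKM in the young samples and 68.8, 74.7, 72.7 and 56.8 FPKM in the old ones. Old replicate 4 lay among the young libraries, and the adjusted p was 0.293. Dnajb11 (ERdj3), of the same compartment, had a log2 fold change of the other sign, at 11.1 to 15.1 FPKM in the young samples and 10.9 to 13.3 FPKM in the old ones (-0.20, adjusted p = 0.399). Dnajb2, a cytosolic member known from neurons, measured 10.9 to 16.3 FPKM in the young samples and 11.6 to 16.3 FPKM in the old ones. Dnajb12 and Dnajb14, both anchored in the membrane of the endoplasmic reticulum, had no overlap between ages. Dnajb12 was 8.72 to 9.69 FPKM in the young samples and 10.1 to 12.2 FPKM in the old ones, and Dnajb14 was 2.53 to 2.89 and 3.03 to 3.45 FPKM, with adjusted p values of 0.208 and 0.190 in limma.

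In the DnaJC class, 22 of 25 genes had a log2 fold change above 0, but their median of 0.15 was the same as that of all genes and fell to 0.01 with it after median-of-ratios scaling. Dnajc6, auxilin, which with Hsc70 strips clathrin from vesicles, had the smallest p and little spread, at 8.74, 9.23, 9.26 and 8.59 FPKM in the young samples and 10.6, 10.7, 11.8 and 10.5 FPKM in the old ones. The log2 fold change was 0.28 (SE 0.08, limma adjusted p = 0.121). Dnajc12, a cofactor of aromatic amino acid hydroxylases, also had no overlap, at 4.18 to 4.75 and 4.84 to 6.05 FPKM. Dnajc28 had an adjusted p of 0.164, with 1.94 to 2.75 FPKM in the young samples and 2.68 to 3.04 FPKM in the old ones. Dnajc3 (p58IPK) of the endoplasmic reticulum, the most abundant, measured 27.4 to 36.0 and 35.3 to 37.2 FPKM. Dnajc9, a chaperone of histones, measured 11.0 to 14.1 and 12.3 to 15.9 FPKM, and Dnajc14 10.5 to 14.7 and 14.6 to 16.3 FPKM, and the ages overlapped in all 3 of these. Ormdl2, on the opposite strand, covers 17.0% of the exon length of Dnajc14, so the values of Dnajc14 are uncertain.

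By compartment, the median log2 fold change was 0.02 over 44 rows counted as cytosolic, 0.19 over 12 of the endoplasmic reticulum and 0.15 over 10 of mitochondria, heat shock factors left aside. The rows counted as cytosolic include, among others, Hspb11 of the cilium, the histone chaperone Dnajc9 and both rows of Hspa14. Their median is therefore not one of cytosolic chaperones alone. After median-of-ratios scaling the 3 medians by compartment became -0.12, 0.04 and 0.00. They are descriptions without a test, and the call in these classes was the single one for Hspa2.

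Among chaperone genes averaging at least 1 FPKM, the widest spread between libraries of an age lay in some genes known to be heat-induced. The group set apart here was Hspa1a, Hspa1b, Hspa8, Hsph1, Hsp90aa1, Hspb1, Dnaja1, Dnajb1, Hspd1 and Hspe1. These 10 were drawn up after their values were seen, so no test is given. Not all of them spread widely. By SD within ages, Hspd1 stood at percentile 65.0 and Hspe1 at 57.2 of all genes at that level. Hsf2, outside the group, stood at 77.8. Hspa1a, the inducible Hsp70, measured 9.82, 5.58, 16.5 and 9.05 FPKM in the young samples and 4.04, 5.32, 13.6 and 18.4 FPKM in the old ones. The highest old library was more than 4 times the lowest, and the means of the ages, 10.2 ± 4.6 and 10.3 ± 6.8 FPKM (SD, n = 4), were nearly the same. Its near-identical copy Hspa1b followed, at 10.6, 7.38, 22.2 and 10.2 FPKM in the young samples and 5.01, 7.68, 17.3 and 22.5 FPKM in the old ones. Reads may be split between the copies, and the ratio of Hspa1b to Hspa1a stayed between 1.08 and 1.44 in all libraries.

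The others of the group varied less. Hsph1, an Hsp110 exchange factor, was 15.4, 9.22, 19.9 and 28.9 FPKM in the young samples and 9.96, 12.8, 15.5 and 14.9 FPKM in the old ones. Dnajb1, the main inducible partner of Hsp70, was 12.0, 8.57, 14.9 and 13.1 FPKM in the young samples and 6.07, 8.36, 10.6 and 11.5 FPKM in the old ones. Dnaja1 was 11.2, 7.97, 13.9 and 17.4 FPKM in the young samples and 7.30, 9.38, 10.3 and 10.7 FPKM in the old ones. Young replicate 2 and old replicates 1 and 2 were low in these genes, and young replicates 3 and 4 were high.

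Of the 10 genes, 8 were lowest among young libraries in replicate 2, against 40.5% of all 14588 genes averaging 1 FPKM or more, and 2 were lowest in replicate 1, against 38.2%. Among old libraries 6 were lowest in replicate 1, against 40.8%, and 4 in replicate 2, against 22.5%. The highest young library was replicate 3 for 5 genes, against 23.9% of all genes, and replicate 4 for 5, close to the 46.5% of all genes. The highest old one was replicate 4 for 7, against 26.6%, and replicate 3 for 3, against 39.3%. Ranked by the SD of log2(FPKM + 0.1) within ages among the 14588 genes, the group had a median percentile of 84.1, from 57.2 for Hspe1 to 96.8 for Hspa1a, and the other chaperone genes a median of 39.7. Percentiles above 80 were found for 7 chaperone genes, and all 7 were in this group. The group was drawn up after values were seen, so these orders and percentiles describe the genes chosen and test nothing. The 10 are also not independent counts, since Hspa1a and Hspa1b are near-identical copies and Hspd1 and Hspe1 share a promoter. The immediate early genes taken up below had a median percentile of 88.9, so wide spread was not particular to this group.

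**Figure D4:**
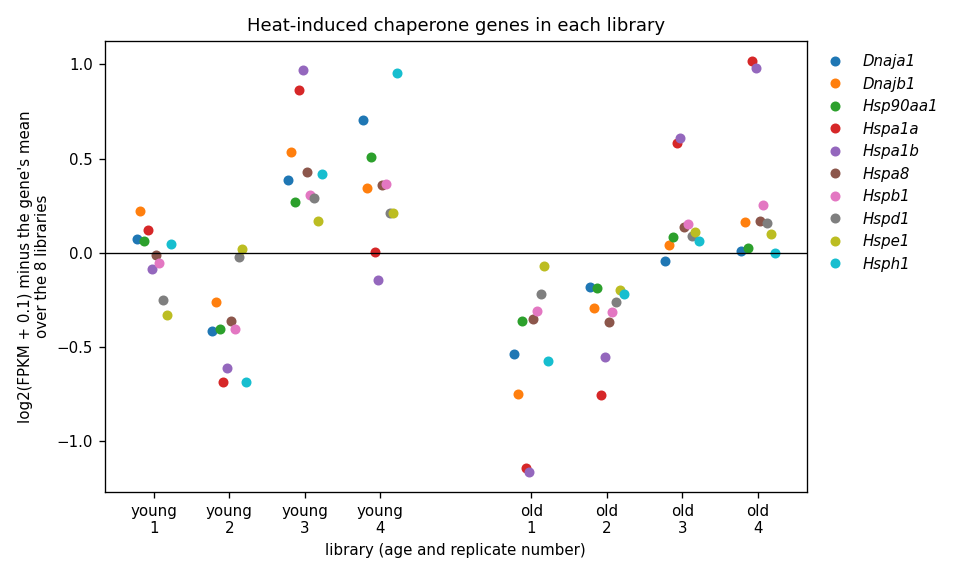
Log2(FPKM + 0.1) of the 10 heat-induced genes in each library, minus each gene's mean over the 8 libraries. Most points lie below 0 in young replicate 2 and old replicates 1 and 2 and above 0 in young replicates 3 and 4 and old replicates 3 and 4, with Hspa1a and Hspa1b spread the most.

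Between the ages, all 10 had a negative log2 fold change, against 30.0% of all genes, and none passed the test. The values ran from -0.42 for Dnajb1 to -0.03 for Hspe1, with a median of -0.18 (-0.32 after median-of-ratios scaling). The group was drawn up after values were seen, so its shared sign is a description and not a result about heat-induced genes. The intervals were wide, at -1.41 to 1.11 for Hspa1a and -0.99 to 0.15 for Dnajb1. The sign was not stable in 3 of them, and leaving out young replicate 3, for example, gave 0.11 for Hspa1a, 0.25 for Hspa1b and 0.02 for Hspe1. The summed level of the group was 318, 257, 429 and 423 FPKM in the young samples and 248, 262, 358 and 372 FPKM in the old ones, with overlap between the ages.

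Other stress-responsive genes were set beside this group. Of 24 immediate early genes, the transcripts that rise within minutes of a stimulus, Egr3 fell, where 0.472% of all genes were called lower, and 23 had a negative log2 fold change, against 30.0% of all genes. Their median was -0.59, 11 were lower at an unadjusted p under 0.05, against 3.79% of all genes, and 4 had every old library below every young one, against 2.06%. Egr3 was 1.77, 1.41, 1.66 and 1.81 FPKM in the young samples and 0.175, 0.344, 0.330 and 0.646 FPKM in the old ones, with an adjusted p of 0.0223 in limma. It stayed past the threshold in 3 of the 8 fits that left out 1 library (adjusted p 0.0120 to 0.0695). Within the old libraries, 16 of the 24 were lowest in replicate 1 and 18 highest in replicate 4, as Hspa1a and Hspa1b were. Nr4a1, for example, chosen after its values were seen, was 19.8, 30.6, 45.5 and 120 FPKM in old and 140, 89.5, 92.4 and 71.0 FPKM in young libraries, an order that Hspa1a did not share in young mice. Of 18 genes of the circadian clock and of temperature none passed. The clock output gene Dbp spanned 4.78 to 15.5 FPKM at the young age and 6.93 to 18.5 FPKM at the old age. The part of either set in the spread of the chaperone genes was not tested.

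Partners of the chaperones were counted in the same fit. Of 16 co-chaperones of Hsp70, a list of exchange factors, BAG proteins, TPR proteins such as Stip1 and the ubiquitin ligase Stub1, Sil1 rose and none fell. Among all genes, 1.86% were called higher. Sil1, the exchange factor of the Hsp70 of the endoplasmic reticulum, was 35.4, 35.3, 38.2 and 40.0 FPKM in the young samples and 58.6, 53.2, 54.8 and 49.4 FPKM in the old ones, with a log2 fold change of 0.53 (SE 0.09, limma adjusted p = 0.0375). Its adjusted p was 0.0823 after median-of-ratios scaling and 0.0543 to 0.102 when any 1 library was left out. Of 24 Hsp90 co-chaperones, Stip1 counted here again, none passed, and Pih1d1, of the R2TP complex, came closest, with a log2 fold change of 0.42. Of 16 CCT and prefoldin genes, which fold actin and tubulin, none passed (Pfdn2, 0.226). Of 16 targets of heat shock factors outside the families none passed. Among these, Bag3, Chordc1, Ahsa1, Stip1, Fkbp4 and Cryab also stand in other lists of this paragraph, so the lists are not separate. Sqstm1, the autophagy receptor p62, came closest, at 69.8 to 72.5 FPKM in the young samples and 89.0 to 93.0 FPKM in the old ones (adjusted p = 0.0586). Of 19 genes of the unfolded protein response of the endoplasmic reticulum none passed, with a median of 0.24, and Xbp1, its main transcription factor, was 32.9 to 39.1 FPKM in the young samples and 44.9 to 46.5 FPKM in the old ones (adjusted p = 0.0933). Of 3 tested crystallin and related small heat shock genes none passed, and Crym had the smallest adjusted p at 0.516.

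Markers of cell types of the gland differed with age as well, and in bulk tissue fewer cells of a type and less RNA per cell cannot be told apart. Of 10 macrophage markers, 3 rose (C1qb, Ctss and Lyz2), where 1.86% of all genes were called higher, and 9 had every old library above every young one, against 13.4%. The summed level of the 10 was 43.9 to 75.6 FPKM in the young samples and 98.6 to 135 FPKM in the old ones. Of 7 fibroblast markers 2 fell (Col1a1 and Col3a1), where 0.472% of all genes were called lower. The 7 summed to 64.2 to 78.2 FPKM in the young samples and 44.1 to 73.6 FPKM in the old ones. Of 5 somatotroph and lactotroph genes Gh fell, of 5 gonadotroph genes Gnrhr and Lhb fell, and of 4 thyrotroph genes Trhr and Dio2 rose. These counts stand beside the same shares of all genes. Growth hormone and prolactin, the defining products of the pituitary, were abundant in every library, with Gh at 20301 to 70106 FPKM and Prl at 75029 to 98278 FPKM. Markers of the posterior lobe summed to 5.51 to 8.36 FPKM in the young samples and 4.89 to 13.3 FPKM in the old ones, and Scn7a was 3.00 FPKM in old replicate 4 and at most 0.107 FPKM elsewhere. No list of endothelial, pericyte, stem cell, corticotroph, lymphocyte, blood, muscle, cilia or testis markers had a member past the threshold. Of 5 sex chromosome genes (Xist, Ddx3y, Kdm5d, Eif2s3y and Uty) 4 were at 0 in all libraries and none passed. The sum of the 5 was 24.2 to 31.4 FPKM in the young samples and 22.5 to 43.5 FPKM in the old ones. The part of these cell types in the difference of Hsf4, Hspa2 or Hspb8 was not tested.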

How the data were processed

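Reads were mapped by the authors to GRCm38 (STAR, version 2.6.1a) and counted as pairs over the exons of Ensembl genes by featureCounts, and the deposited values are FPKM from edgeR (version 3.28.1), 1 list per library. Which Ensembl release and strand setting were used is not given in the sources used here.

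FPKM are not counts, so log2(FPKM + 0.1) was compared with limma (version 3.58.1, R 4.3.3, trend and robust off, two-sided, adjusted p under 0.05) over genes averaging 0.1 FPKM or more. Fragments were recovered with GENCODE M21 exon lengths and are given for genes where all 8 values came out whole. A listed 0 allows up to 3 fragments, or 0.147 to 0.199 CPM, and such limits cover counting error only. Python 3.11.15 and matplotlib 3.10.9 were used for summaries and plots.

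The members and gene lists were chosen with earlier results of these data known. Named genes were every member that passed, every heat shock factor, and in each family the 3 most abundant and the 2 with the smallest adjusted p, and of other lists the genes that passed or else the one with the smallest adjusted p. The heat-induced group, the ratios and genes without overlap between ages were added after values were seen. The alternatives were other pseudocounts, filters and scalings, a mean-variance trend, a block for the replicate number, and fits without 1 library each. No 2 libraries of an age agreed within sampling noise.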

Additional observations from a re-analysis of the deposited data

Results flagged for a closer look

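Among 68 groups of 4 libraries checked for a sample far from the rest (34 genes at both ages), 1 stood out. Hspb8 was 11.2 FPKM in old replicate 3, while the other old libraries lay between 6.74 and 6.89 FPKM, a gap of 0.967 of the whole range of the group. Chance alone would single out about 1 group in 20, so 1 of 68 is not more than chance would give. Without old replicate 3 the old libraries still lay above the young ones, of which the highest was 4.67 FPKM.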

How the results depend on the processing

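Of 16 alternatives, each changed 1 choice. The count of chaperone genes higher in old was 2 as reported, 1 with no filter on low values, 1 with library sizes without hormone and ribosomal RNA repeat genes, and 1 to 1 when each library was left out in turn; the gene kept in all of these was Hsf4. No alternative gave a chaperone gene lower in old. The median log2 fold change of the set, 0.10, became -0.04 with median-of-ratios scaling (-0.0429) and with library sizes without the abundant genes (-0.0421), where the median of all genes was 0.01. Across 34 named genes and 543 pairs of gene and alternative, 528 stayed on their side of the threshold, 12 lost it (11 for Hspa2 and 1 for Hsf4), 3 gained it (Hspb8), and no called gene changed sign.

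With the replicate number as a block, 0 chaperone genes passed (adjusted p 0.129 for Hsf4 and 0.157 for Hspa2) and 4 genes in all. Libraries with the same number did not deviate together (r from -0.0883 to 0.0572 across genes), and those with unlike numbers had r from -0.105 to 0.0751. No pairing by number was seen over all genes, but this cannot exclude a shared batch that touches few genes. The counts over all genes, 436 higher and 111 lower, were 689 and 138 with a pseudocount of 1, 796 and 123 with a minimum of 1 FPKM, 705 and 139 with a mean-variance trend, 263 and 80 with no filter, 193 and 179 without the abundant genes, and 64 to 327 higher and 21 to 163 lower without 1 library. At 4 libraries an age, the intervals of the heat-induced genes allow differences in both directions.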
